A study of Mus musculus with 8 samples.

Results

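Constant light was compared with a light/dark cycle in the livers of mice that breathed filtered air. The comparison used 4 of the 8 RNA sequencing libraries of a study of light and air pollution, 2 from mice kept under constant light (LL-FA) and 2 from mice kept in a light/dark cycle (LD-FA), chosen by their sample titles. All mice were C57BL/6 with a wild-type genotype, and each exposure lasted 30 weeks. The other 4 libraries came from the same light regimes combined with PM2.5, airborne particles small enough to reach the deep lung (LD-PM2.5 and LL-PM2.5, 2 libraries each). They entered the fit to give 1 shared estimate of the spread, and they serve below as a second setting in which the light regimes can be compared. Age, sex, the hours of light and dark, the hour at which livers were taken, and whether the libraries of a group came from separate animals are not stated in the labels used here. Any p-value may therefore measure no more than a technical spread between libraries.

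Nearly every cell of the liver carries a molecular clock. The transcription factors CLOCK and BMAL1 bind E-box elements and switch on the period and cryptochrome genes, whose proteins then repress them, and they also switch on output factors such as Dbp and Tef, which pass the rhythm on to genes of metabolism. Light sets the master clock in the brain, which reaches the liver through feeding, body temperature and glucocorticoid hormone, and constant light is a common way to weaken or shift these signals. Beyond its rhythms the liver makes the plasma proteins of the acute phase response to inflammation, stores vitamin A, and switches between making and burning fat and glucose with the feeding state. Without the hour of collection a changed level and a shifted phase cannot be told apart.

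Libraries held 22719024 to 31819109 estimated fragments in the 2 filtered air groups, and 11316 genes with at least 1 FPKM (fragments scaled to transcript length and to depth) in at least 2 of the 8 libraries were tested. Across these genes, which are not independent replicates, log2 counts of the 2 libraries correlated with a Pearson r of 0.959 in each group, and neither pair lay within sampling noise (chi-square of 70.5 and 41.3 per degree of freedom). The label liver matched its markers. The 8 hepatocyte markers with estimates in every library, among them the fatty acid binder Fabp1, summed to between 22387 and 27282 FPKM in the 8 libraries. Transcripts of other tissues set 2 of the 4 libraries apart. The 38 markers of pancreatic acinar cells, which make digestive enzymes, summed to 5964 FPKM in LD-FA replicate 1 against 36 in LD-FA replicate 2, and to 18.7 and 27.6 in the LL-FA libraries. The 48 skeletal muscle markers summed to 619 and 111 FPKM in LD-FA and to 1227 and 58.6 in LL-FA. LL-FA replicate 1 also held adrenal transcripts, 71.2 FPKM over 9 genes of steroid synthesis where the other 7 libraries held at most 0.862. The plot of marker sums shows all 8 libraries. Because of these signals the main counts below are also given with replicate 1 of LD-FA and of LL-FA both removed. This leaves 1 library in each filtered air group and assumes that it varies like the other groups. It does not remove the muscle signal. Muscle markers summed to 111 FPKM in the kept light/dark library, against 58.6 in the kept constant light library. Of 41 tested muscle markers 38 were lower in that fit and 3 higher, with a median log2 fold change of -5.58.

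**Figure D1:**
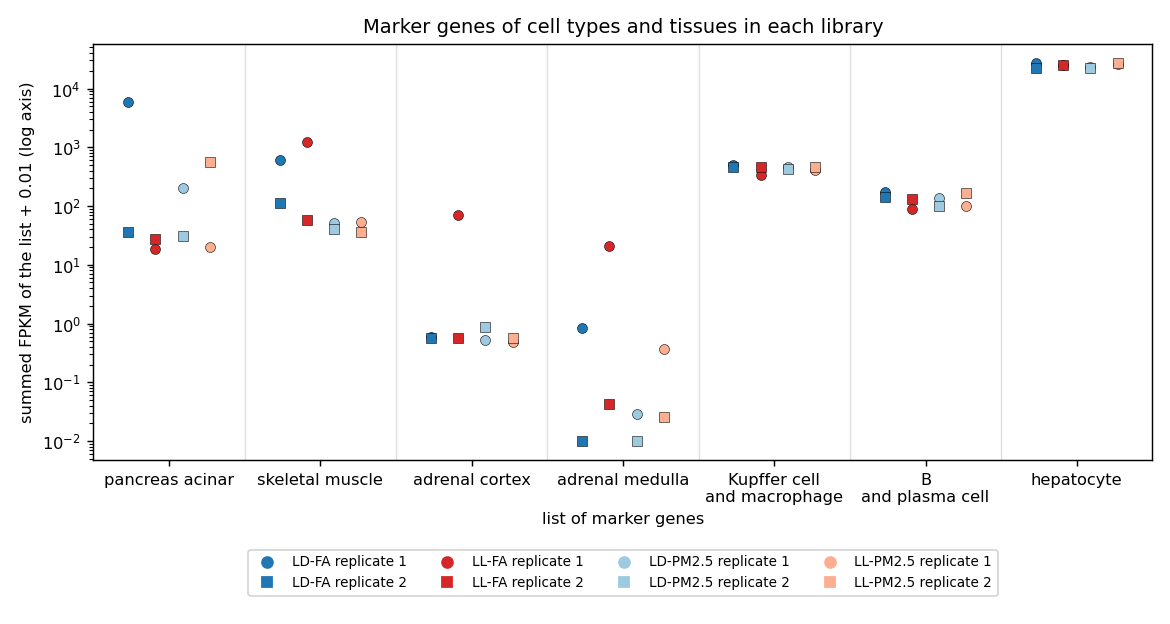
Summed FPKM (log axis, with 0.01 added) of the marker genes of 7 tissues and cell types in each library, with circles for replicate 1 and squares for replicate 2. LD-FA replicate 1 stands at 5964 for pancreas acinar genes and LL-FA replicate 1 at 71.2 for adrenal cortex genes, while the hepatocyte markers lie between 22387 and 27282 in every library.

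No gene passed the test across all genes. In edgeR's quasi-likelihood test with Benjamini-Hochberg adjustment, 0 of 11316 genes (0%) had an adjusted p under 0.05, and the smallest adjusted p was 0.515. An unadjusted p under 0.05 was reached by 310 genes, 2.74% of those tested, of which 135 (1.19%) were higher and 175 (1.55%) lower in constant light. Of these 175, 26 were pancreas acinar markers, which were high in LD-FA replicate 1, and without that library 116 genes were under 0.05. In 1209 genes (10.7%) both LL-FA libraries lay above both LD-FA libraries in FPKM, and in 1274 (11.3%) both lay below, 21.9% in all. In log2 CPM, computed from the fragments, 30.2% did not overlap. FPKM per fragment differed between replicate 1 and replicate 2 libraries by a gene-specific factor, given with the processing below. The part of this factor in the gap was not tested. The log2 fold change was above 0 in 50.1% of genes. The median standard error (SE) of a log2 fold change was 0.19. Other fits did call genes. DESeq2 called 43 genes (0.38%), 10 higher (0.0884%) and 33 lower (0.292%), and edgeR with no filter on low values called 201 of 23030 (0.873%), 80 higher (0.347%) and 121 lower (0.525%). In that fit the prior degrees of freedom were 76.3, against 3.46 with the filter, and 56 of the 201 genes belonged to the lists of pancreas, muscle, fat or adrenal genes. The values that follow are therefore given as levels in each library, with fold changes, SEs and adjusted p-values from edgeR, and no gene is said to have risen or fallen. Genes named for a small p or a large fold change were chosen among those without overlap between the regimes, so their lack of overlap is a description only.

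Genes of the acute phase, whose products hepatocytes secrete into blood during inflammation, were low in constant light, with the lowest median of the 42 lists in the plot of list medians. Of the 29 tested genes of this list 27 were lower in LL-FA and 2 higher, and in 20 of the 27 both LL-FA libraries lay below both LD-FA libraries, against 11.3% of all genes. The median log2 fold change of the list was -0.75, beside 0.00 for all tested genes, and 13 members were lower at an unadjusted p under 0.05, against 1.55% of all genes. Saa1, which encodes a serum amyloid A protein carried on lipoproteins (chromosome 7, 46740497 to 46742980, GRCm38), stood at 2851 and 1281 FPKM in LD-FA and at 39.9 and 43.7 in LL-FA. The 2 regimes were far apart, and the LL-FA libraries were close to each other while those of LD-FA were not. Its log2 fold change was -5.62 ± 0.98 (SE; edgeR adjusted p = 0.649). Saa2, a near-identical neighbour with which reads can be shared, stood at 1414 and 586 FPKM in LD-FA and at 20.3 and 16.6 in LL-FA, a log2 fold change of -5.73 ± 1.19. Lcn2, which encodes lipocalin 2, a binder of bacterial iron carriers, was at 57 and 30.6 FPKM in LD-FA and at 3.1 and 1.63 in LL-FA, a log2 fold change of -4.17 ± 0.90.

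Orosomucoids, abundant plasma carrier proteins of the acute phase, showed the same order. Orm2 was at 102 and 41 FPKM in LD-FA and at 13.5 and 13 in LL-FA, a log2 fold change of -2.43 ± 0.45 (edgeR adjusted p = 0.79). Orm3 was at 7.57 and 8.63 FPKM in LD-FA and at 2.14 and 1.52 in LL-FA, and its log2 fold change was -2.19 ± 0.42. The orosomucoid genes resemble each other closely, so fragments may be split among them. In Saa1, Saa2, Lcn2 and Orm2 the higher of the 2 LD-FA values came from LD-FA replicate 1, the library with the pancreas transcripts. Without that library their log2 fold changes were -4.95, -4.95, -3.66 and -1.70, and without both libraries that stood apart -4.89, -5.17, -4.25 and -1.71. The list then had 25 members lower and 4 higher, with a median of -0.45. DESeq2 called Saa1 (adjusted p = 3.33e-06), Saa2 (adjusted p = 0.000177), Lcn2 (adjusted p = 0.0141) and Orm2 (adjusted p = 1.21e-07), all lower.

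The promoters of 2 of these genes are shown because genes of the list stood low together. Each is the 250 bases before the start of transcription from the RefSeq table on GRCm38.p6, on the gene's own strand and 5′ to 3′. Saa1 lies at chr7:46742981-46743230 on the minus strand and Orm2 at chr4:63362199-63362448 on the plus strand, and capitals mark matches on either strand to TTNNGNAA, a core of the sites that bind C/EBP factors, which drive many acute phase genes.
Saa1: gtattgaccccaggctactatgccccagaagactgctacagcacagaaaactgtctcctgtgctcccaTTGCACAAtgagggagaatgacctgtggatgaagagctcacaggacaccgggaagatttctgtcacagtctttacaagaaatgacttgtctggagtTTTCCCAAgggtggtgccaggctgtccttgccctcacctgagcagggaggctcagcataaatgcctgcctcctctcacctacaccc
Orm2: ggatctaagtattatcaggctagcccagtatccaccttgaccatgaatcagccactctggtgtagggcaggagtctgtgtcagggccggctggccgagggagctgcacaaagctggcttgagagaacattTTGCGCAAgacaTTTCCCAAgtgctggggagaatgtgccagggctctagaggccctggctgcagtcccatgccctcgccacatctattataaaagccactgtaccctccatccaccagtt
Saa1 held 2 matches, which began 182 and 86 bases before the start, and Orm2 held 2, at 120 and 108 bases. The promoters of Saa2 and Lcn2, which are not shown, held 1 match each. At least 1 match occurred in 36.8% of the 32851 promoters of the table and 2 or more in 10.9%, so the letters alone are common. The D-box motif TTATGNAA is a special case of this motif, and the promoters of Saa1 and Orm2 did not hold it.

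Cytokine genes and targets of the inflammatory factor NF-kB were low as a group at much lower levels. Of 17 tested, 16 were lower in LL-FA and 1 higher, with a median log2 fold change of -0.54, and 8 were lower at an unadjusted p under 0.05, against 1.55% of all genes. Both LL-FA libraries lay below both LD-FA libraries in 14 of the 17, against 11.3% of all genes. Il1b, the gene of interleukin 1 beta (chromosome 2, 129364570 to 129371139, GRCm38), stood at 4.36 and 2.36 FPKM in LD-FA and at 0.868 and 0.634 in LL-FA, a log2 fold change of -2.15 ± 0.32 (edgeR adjusted p = 0.515). Ccl2, a chemokine that draws monocytes, was at 2.77 and 2.73 FPKM in LD-FA and at 0.428 and 0.754 in LL-FA. Cxcl1, a chemokine for neutrophils, was at 10.6 and 10 FPKM in LD-FA and at 3.66 and 1.94 in LL-FA. In these chemokine genes the LD-FA libraries were nearly level, so the gap did not rest on LD-FA replicate 1. Nfkbia, the inhibitor that NF-kB induces against itself, had a log2 fold change of -0.66 ± 0.19. Without both libraries that stood apart the list again had 16 members lower and 1 higher, and its median was -0.74.

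Other defence genes were lower by smaller amounts. Of 30 tested interferon response genes 28 were lower in LL-FA, with a median of -0.26, and 2 were lower at an unadjusted p under 0.05, against 1.55% of all genes. Usp18, which restrains interferon receptor signalling, was at 3.16 and 2.64 FPKM in LD-FA and at 1.46 and 1.54 in LL-FA. Without both libraries that stood apart 23 of the 30 were lower and the median was -0.14. Of 31 genes of complement and coagulation 27 were lower, with a median of -0.13. C4b, a complement component, was at 208 and 183 FPKM in LD-FA and at 125 and 119 in LL-FA, a log2 fold change of -0.63 ± 0.17. Genes around the interleukin 6 signal transducer STAT3 did not share 1 direction, with 9 of 16 higher and 7 lower. Stat3 itself had a log2 fold change of -0.37 ± 0.12, while the kinase genes Pim1 and Pim3 were at 0.39 ± 0.16 and 0.63 ± 0.20.

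Lists of immune cell markers differed in direction, and in bulk tissue fewer cells of a type and less RNA per cell cannot be told apart. The 20 Kupffer cell and macrophage markers, genes of the resident macrophages of the liver, summed to 507 and 455 FPKM in LD-FA and to 341 and 468 in LL-FA, so the groups overlapped. Of the 17 tested, 14 were lower, with a median of -0.28, and without both libraries that stood apart 9 were lower and 8 higher, with a median of -0.02. Their part in the low cytokine values was not tested. Cd5l, secreted by Kupffer cells, was at 70 and 58.5 FPKM in LD-FA and at 43.2 and 50.6 in LL-FA. Ighm, the heavy chain of immunoglobulin M (chromosome 12, 113418558 to 113422730, GRCm38), was at 21.6 and 17.3 FPKM in LD-FA and at 5.72 and 8.03 in LL-FA, a log2 fold change of -1.48 ± 0.21 (edgeR adjusted p = 0.515). Igkc, an immunoglobulin light chain, was at 62.7 and 39.8 FPKM in LD-FA and at 14 and 26.3 in LL-FA. Neither antibody gene overlapped between regimes, and the lowest value of each came from LL-FA replicate 1. The 18 B and plasma cell markers summed to 170 and 141 FPKM in LD-FA and to 88.8 and 132 in LL-FA. Of the 7 tested, 5 were lower and 2 higher, with a median of -0.68, and with both libraries that stood apart removed 4 were lower and 3 higher, with a median of -0.10 and Igkc at -0.64 against -1.34. The 15 dendritic cell and MHC class II genes, which present antigen, summed to 162 and 163 FPKM in LD-FA and to 142 and 212 in LL-FA, with 4 of 7 tested genes higher and a median of 0.06. The 18 T and NK cell markers summed to 8.92 and 7.42 FPKM in LD-FA and to 6.72 and 8.8 in LL-FA, and these sums overlapped as well.

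Of 20 tested cytosolic heat shock chaperones, which refold proteins after heat or other stress, 14 were lower and 6 higher, with a median of -0.16. Against 1.55% of all genes, 5 of the 20 were lower at an unadjusted p under 0.05. The 4 described here are those of smallest p. Hspa1b, an HSP70 gene, stood at 25.8 and 20.5 FPKM in LD-FA and at 2.02 and 3.57 in LL-FA, a log2 fold change of -3.0 ± 0.52 (edgeR adjusted p = 0.649). Hspa1a, its near-identical neighbour, was at 3.17 and 2.16 FPKM in LD-FA and at 0.21 and 0.187 in LL-FA, a log2 fold change of -3.61 ± 0.48 and the smallest p of all tested genes in edgeR (adjusted p = 0.515). How fragments were shared between these 2 copies is uncertain, and both stood low. Dnajb1, an HSP40 partner of HSP70, was at 26.2 and 22.1 FPKM in LD-FA and at 9.92 and 12.3 in LL-FA. Bag3, which links HSP70 to autophagy, was at 32.7 and 34.9 FPKM in LD-FA and at 21.9 and 17.1 in LL-FA. None of the 4 genes overlapped between regimes. Without both libraries that stood apart their log2 fold changes were -2.53, -3.54, -0.86 and -1.04. Of the 20, 13 were lower and 7 higher in that fit, with a median of -0.09.

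The promoter of Hspa1b is shown for its heat shock element, the site of the stress factor HSF1. It is the 250 bases at chr17:34959239-34959488 on the minus strand of GRCm38.p6, and capitals mark the match to GAANNTTC, a motif that reads alike on both strands.
Hspa1b: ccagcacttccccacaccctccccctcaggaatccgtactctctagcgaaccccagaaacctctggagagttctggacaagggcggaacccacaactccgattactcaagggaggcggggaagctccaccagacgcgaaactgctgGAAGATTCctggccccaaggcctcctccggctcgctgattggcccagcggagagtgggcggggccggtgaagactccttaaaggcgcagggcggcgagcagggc
The match began 104 bases before the start, and 6.69% of the promoters in the table held at least 1. Dnajb1 had no match in the 250 bases before either of its listed starts.

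**Figure D2:**
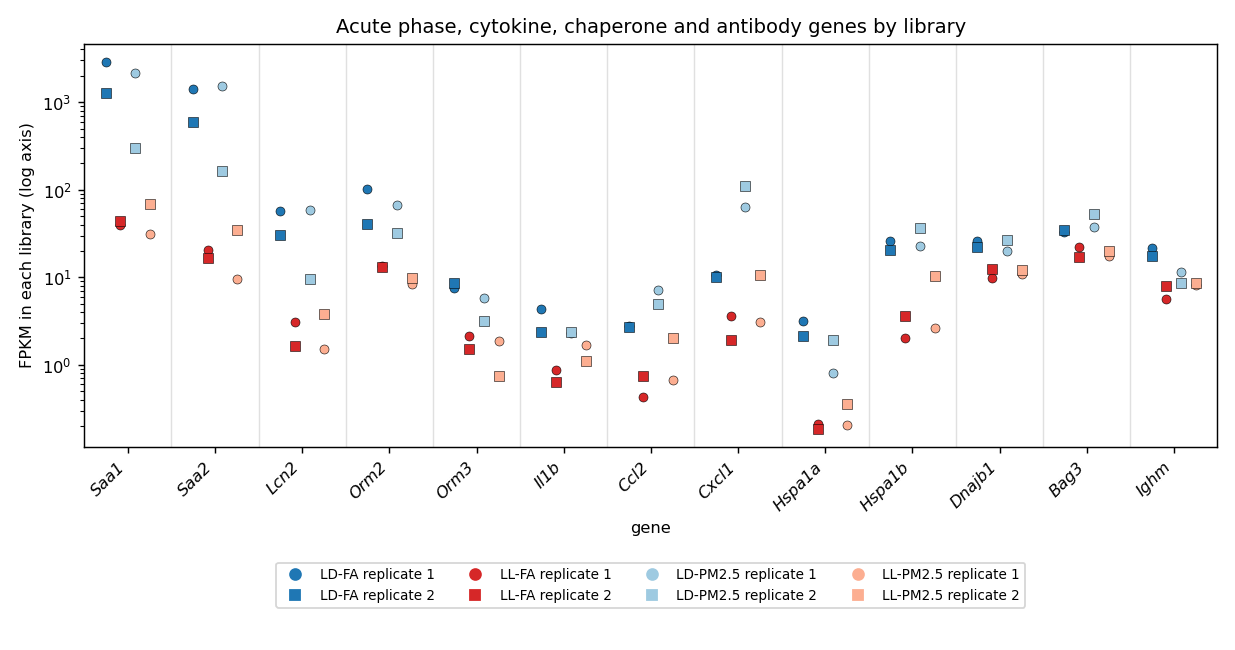
FPKM (log axis) of 13 acute phase, cytokine, chaperone and antibody genes in each of the 8 libraries, with circles for replicate 1 and squares for replicate 2. In each of these genes both LL-FA libraries lie below both LD-FA libraries, as for Saa1 at 39.9 and 43.7 FPKM against 2851 and 1281.

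Genes of the stress response of the endoplasmic reticulum, where secreted proteins fold, were also lower by count. Of 25 tested genes of the unfolded protein response 23 were lower and 2 higher, with a median of -0.31, and none had an unadjusted p under 0.05. Hspa5, the main chaperone of that compartment, was at 575 and 349 FPKM in LD-FA and at 291 and 244 in LL-FA. Manf, a small secreted stress protein, was at 149 and 75.9 FPKM in LD-FA and at 65.5 and 54.3 in LL-FA. In both genes LD-FA replicate 1 was the high library, and without both libraries that stood apart the list median was -0.14, with 20 of 25 lower. Pancreatic acinar cells are themselves rich in these chaperones, and the part of the pancreas transcripts of LD-FA replicate 1 in this result was not tested. Among immediate early genes, which respond within minutes to growth and stress signals, 13 of 20 were lower, with a median of -0.37, and without LD-FA replicate 1 the split was 10 higher and 10 lower, with a median of -0.11. Fos stood at 4.19 and 0.81 FPKM in LD-FA and at 0.486 and 0.315 in LL-FA, so its gap came mainly from LD-FA replicate 1, and its log2 fold change of -2.59 ± 0.88 was -0.96 without that library. Atf3, a stress-induced repressor, was at 1.39 and 0.896 FPKM in LD-FA and at 0.454 and 0.348 in LL-FA, and Dusp6, which switches off ERK kinases, at 13.2 and 15 against 10.2 and 5.99.

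In the other direction, genes that handle vitamin A included the gene of smallest p among those higher in constant light. It was Cyp26a1, the enzyme that degrades retinoic acid, the active form of vitamin A (chromosome 19, 37697798 to 37701536, GRCm38), which stood at 7.53 and 9.08 FPKM in LD-FA and at 36.6 and 36.4 in LL-FA. Its libraries agreed within each regime, and the log2 fold change was 2.14 ± 0.32 (edgeR adjusted p = 0.515, and DESeq2 adjusted p = 4.3e-09). It ranged from 1.98 to 2.29 when LD-FA or LL-FA libraries were left out. Cyp26b1, a second enzyme of this kind, was at 0.901 and 0.294 FPKM in LD-FA and at 5.39 and 7.78 in LL-FA, a log2 fold change of 3.51 ± 1.42. Lrat, which esterifies vitamin A for storage, was at 2.71 and 2.26 FPKM in LD-FA and at 5.53 and 4.5 in LL-FA. Retsat, a retinol saturase, was at 140 and 141 FPKM in LD-FA and at 254 and 249 in LL-FA. These 4 genes did not overlap between regimes, and without both libraries that stood apart their log2 fold changes were 1.98, 4.74, 1.0 and 0.74. Their list as a whole had no direction. Of 24 tested genes of retinoid metabolism 12 were higher and 12 lower, with a median of 0.01. An unadjusted p under 0.05 was reached by 5, all higher, against 1.19% of all genes. Fewer members were under 0.05 in each fit with 1 filtered air library left out. Removing both libraries that stood apart gave 18 higher and 6 lower.

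The promoter of Cyp26a1 is shown because it holds a direct repeat spaced by 5 bases, the DR5 element through which retinoic acid receptors act. The 250 bases lie at chr19:37697558-37697807 on the plus strand of GRCm38.p6, with the match, which is on the opposite strand, in capitals.
Cyp26a1: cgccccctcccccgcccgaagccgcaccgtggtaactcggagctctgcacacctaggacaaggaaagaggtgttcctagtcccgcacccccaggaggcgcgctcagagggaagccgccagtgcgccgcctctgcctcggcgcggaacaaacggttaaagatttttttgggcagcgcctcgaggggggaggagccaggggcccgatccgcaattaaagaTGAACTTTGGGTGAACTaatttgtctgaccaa
The match began 32 bases before the start. Of the 32851 promoters 29, or 0.0883%, held a match to this motif on either strand. Cyp26b1 had no match in the 250 bases before its listed start.

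Genes of fatty acid oxidation and targets of PPARa, the receptor that switches on fat burning in fasting, were nearly all slightly higher in constant light. Of 38 tested, 37 were higher and 1 lower, with a median log2 fold change of 0.27, and in 23 both LL-FA libraries lay above both LD-FA libraries, against 10.7% of all genes. An unadjusted p under 0.05 was reached by 6, all higher, against 1.19% of all genes. Cyp4a14, a fatty acid hydroxylase induced by PPARa (chromosome 4, 115486200 to 115496142, GRCm38), stood at 3.49 and 33.8 FPKM in LD-FA and at 162 and 118 in LL-FA. The LD-FA libraries differed widely, and its log2 fold change of 2.75 ± 0.94 was 1.89 without LD-FA replicate 1 and 5.38 without LD-FA replicate 2. Cyp4a10, a close relative, was at 20.6 and 67.2 FPKM in LD-FA and at 175 and 103 in LL-FA. Acot3, a peroxisomal acyl-CoA thioesterase of a family of close copies, was at 0.542 and 0.771 FPKM in LD-FA and at 2.24 and 1.61 in LL-FA. Acaa1b, a thiolase of peroxisomal oxidation, was at 503 and 750 FPKM in LD-FA and at 759 and 1149 in LL-FA. Without both libraries that stood apart 31 of the 38 were higher and 7 lower, with a median of 0.21.

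Of 29 tested genes of fatty acid and triglyceride synthesis and lipid droplets 21 were higher, with a median of 0.11. That median was 0.03 without LD-FA replicate 1 and 0.40 without LD-FA replicate 2, and with both libraries that stood apart removed it was 0.01, with 16 genes higher and 13 lower. Cidec, a lipid droplet protein of fat cells and of fatty liver, was at 1.69 and 3.89 FPKM in LD-FA and at 17.6 and 7.45 in LL-FA, a log2 fold change of 2.18 ± 0.52. LL-FA replicate 1, its highest library, also held 6.94 FPKM of the fat cell hormone Adipoq, against 0.77 or less in the other 3 filtered air libraries, and without both libraries that stood apart Cidec was at 0.89. Pparg, a regulator of fat storage, was at 5.12 and 6.26 FPKM in LD-FA and at 9.1 and 10.9 in LL-FA, and Lpin2, an enzyme of triglyceride synthesis, at 19.7 and 25.8 against 36.4 and 35.5. Their log2 fold changes were 0.77 and 0.64 with all libraries and 0.76 and 0.49 without both that stood apart. Of 26 tested genes of cholesterol synthesis 23 were lower and 3 higher, with a median of -0.28, and none had an unadjusted p under 0.05. Srebf2, the factor that drives the pathway, was at 14.5 and 19 FPKM in LD-FA and at 13.7 and 13.1 in LL-FA, so the regimes did not overlap. In the fit without both libraries that stood apart 25 of the 26 were lower, with a median of -0.51.

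Genes of glucose output and insulin response were low singly rather than as a list. G6pc, which encodes the phosphatase that releases glucose into blood (chromosome 11, 101367561 to 101377903, GRCm38), stood at 184 and 180 FPKM in LD-FA and at 70.7 and 42.8 in LL-FA. Its log2 fold change was -1.71 ± 0.43 (edgeR unadjusted p = 0.00487, not called after adjustment, and DESeq2 adjusted p = 0.000651). Igfbp1, a secreted binder of insulin-like growth factors that insulin represses, was at 28.6 and 11.3 FPKM in LD-FA and at 2.37 and 3.23 in LL-FA, a log2 fold change of -2.82 ± 0.83. Irs2, an adaptor of the insulin receptor, was at 2.44 and 2.67 FPKM in LD-FA and at 0.852 and 1.38 in LL-FA. Without both libraries that stood apart these 3 genes were at -2.08, -1.82 and -0.95. Pfkfb3, which promotes glycolysis, went the other way, at 1.07 and 1.49 FPKM in LD-FA and at 3.03 and 4.9 in LL-FA. Of the 27 tested genes of the list 13 were higher and 14 lower, with a median of -0.04, and without both libraries that stood apart 10 were higher and 17 lower.

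Of 24 tested genes of the growth hormone list, which holds its transducer STAT5 and targets, 10 were higher and 14 lower, with a median of -0.03. Some of them were high in a single library. Cish, a feedback inhibitor that STAT5 induces, stood at 0.392 and 1.72 FPKM in LD-FA, 0.564 in LL-FA replicate 1 and 24.9 in LL-FA replicate 2. Socs2, a second such inhibitor, was at 1.01 and 0.748 FPKM in LD-FA and at 2.07 and 10.6 in LL-FA, and the liver factor gene Onecut1 at 1.1 and 2.52 against 2.34 and 11.1. Genes of other lists shared this pattern. Myc, an immediate early gene, was at 0.936 and 1.11 FPKM in LD-FA and at 0.971 and 14.5 in LL-FA, and Gadd45g, from the list of growth arrest genes, at 3.25 and 5.79 against 3.59 and 41.8. In these 5 genes LL-FA replicate 2 alone was far above the rest of filtered air. Their log2 fold changes of 3.57, 2.96, 1.88, 2.93 and 2.23 were -0.77, 1.21, 0.25, 0.23 and 0.08 without that library. Cish, Onecut1, Myc and Gadd45g thus rest on 1 library, while Socs2 kept a smaller difference in the same direction.

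Some core clock genes stood higher in constant light, some lower, and others overlapped between the regimes. Of 12 tested genes that CLOCK and BMAL1 switch on, 8 were higher and 4 lower, with a median of 0.28, and 4 were higher at an unadjusted p under 0.05, against 1.19% of all genes. With 1 filtered air library left out 1 or 2 were under 0.05. The median ranged from 0.10 to 0.44 in those fits and was 0.05 without both that stood apart, with 6 genes higher and 6 lower. Dbp (chromosome 7, 45705088 to 45710203, GRCm38) stood at 2.77 and 2.05 FPKM in LD-FA and at 3.86 and 9.08 in LL-FA. Its log2 fold change was 1.43 ± 0.38 (edgeR unadjusted p = 0.00652, not called after adjustment, and DESeq2 adjusted p = 0.0126). Per3, a period gene, was at 0.111 and 0.138 FPKM in LD-FA and at 0.456 and 0.464 in LL-FA. Per3 lay below 1 FPKM in all these libraries, so it passed the filter through the PM2.5 libraries. Its log2 fold change of 1.90 was 0.38 with limma on log2(FPKM + 1). Tef was at 7.1 and 8.82 FPKM in LD-FA and at 14.8 and 16.3 in LL-FA. Nr1d2, which encodes the repressor REV-ERB beta, was at 9.76 and 6.65 FPKM in LD-FA and at 11.7 and 10.8 in LL-FA. These 4 genes did not overlap between regimes. Of the 12, both LL-FA libraries lay above both LD-FA libraries in 6, against 10.7% of all genes, and below in 2, against 11.3%. The other period genes did overlap, Per1 at 0.966 and 1.43 FPKM against 1.53 and 1.21 and Per2 at 0.699 and 1.7 against 1.23 and 1.08, as did the cryptochrome gene Cry1 at 5.36 and 3.97 against 5.09 and 3.5. Nr1d1, which encodes REV-ERB alpha, was lower, at 22 and 20.1 FPKM against 15.1 and 12.2, with a log2 fold change of -0.58 ± 0.79. Bhlhe40 was also lower without overlap, at 31 and 35.4 FPKM against 28.3 and 16.2.

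Among the 6 tested clock genes of the opposite phase both LL-FA libraries lay below both LD-FA libraries in 3, against 11.3% of all genes. Arntl, which encodes BMAL1, was at 6.75 and 6.35 FPKM in LD-FA and at 6.1 and 4.88 in LL-FA, a log2 fold change of -0.27 ± 0.14. Its partner gene Npas2 was at 1.17 and 1.41 FPKM in LD-FA and at 0.544 and 0.469 in LL-FA, and the repressor gene Nfil3 at 13.7 and 16.8 against 12 and 12.6. None of the 3 reached an unadjusted p under 0.05. Of the 6 tested genes of this list 3 were higher and 3 lower, with a median of -0.09. Removing LD-FA replicate 1 or LL-FA replicate 1 left 5 lower, and with both removed all 6 were lower, with a median of -0.37. Outputs of the liver clock were split, with 10 of 18 higher and 8 lower. Usp2, a clock-driven deubiquitinase, was at 1.01 and 0.803 FPKM in LD-FA and at 3.3 and 4.59 in LL-FA. Rgs16, a fasting-linked regulator of G proteins, was at 0.35 and 0.293 against 0.088 and 0.12, all below 1 FPKM. Alas1, which starts heme synthesis, was at 42.5 and 49.9 FPKM in LD-FA and at 70.4 and 164 in LL-FA, a log2 fold change of 1.36 ± 0.42 that was 0.67 without LL-FA replicate 2.

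**Figure D3:**
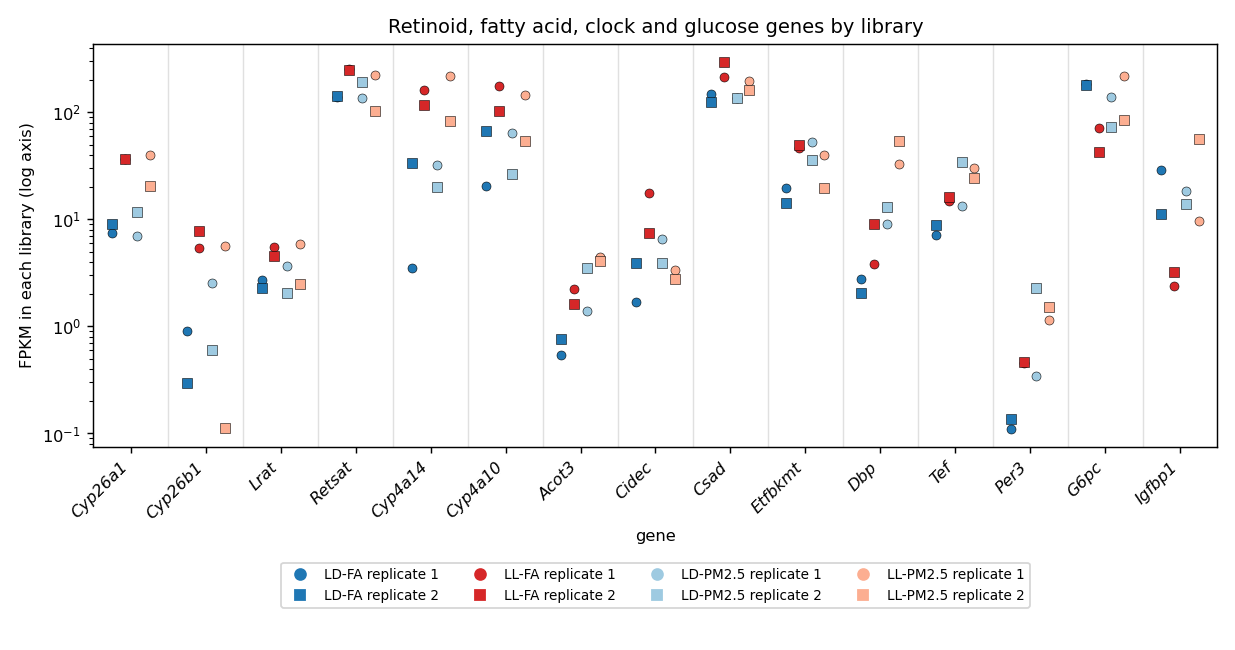
FPKM (log axis) of 15 retinoid, fatty acid, clock and glucose genes in each of the 8 libraries, with circles for replicate 1 and squares for replicate 2. In filtered air the regimes do not overlap in any of these genes. Cyp26a1 stands at 36.6 and 36.4 FPKM in LL-FA against 7.53 and 9.08 in LD-FA.

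Genes outside these pathways included 6 of those with the smallest p. Csad, an enzyme of taurine synthesis, stood at 149 and 126 FPKM in LD-FA and at 214 and 293 in LL-FA, a log2 fold change of 0.93 ± 0.18 (edgeR adjusted p = 0.79). Etfbkmt, a methyltransferase of an electron carrier in mitochondria, was at 19.6 and 14.1 FPKM in LD-FA and at 46.5 and 49.3 in LL-FA, a log2 fold change of 1.53 ± 0.27 (edgeR adjusted p = 0.649). Nrep was at 6.27 and 3.42 FPKM in LD-FA and at 13.1 and 11.3 in LL-FA. On the lower side Prg4, which encodes the lubricating glycoprotein lubricin, was at 17.1 and 11.5 FPKM in LD-FA and at 6.56 and 4.94 in LL-FA, a log2 fold change of -1.16 ± 0.18 (edgeR adjusted p = 0.515). Arl4d, a small GTPase, was at 28.6 and 21.5 FPKM against 11 and 6.82, and Rsrp1 at 76.6 and 54.5 against 33.9 and 31.6. Bhmt, which remakes methionine from betaine and was named as a member of the amino acid breakdown list, was at 1462 and 1549 FPKM in LD-FA and at 928 and 862 in LL-FA, a log2 fold change of -0.74 ± 0.23. Each of these 7 genes had the same direction without both libraries that stood apart, with log2 fold changes from -1.65 to 1.89.

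Several large pathways of the liver had medians near 0, and in some of them the direction by count turned with the libraries used. Of 50 tested genes of oxidative phosphorylation 31 were higher and 19 lower, with a median of 0.02, and none of the 50 had an unadjusted p under 0.05. The split was 48 higher and 2 lower without LD-FA replicate 1 and 49 and 1 when LL-FA replicate 1 was left out. It was 17 and 33 without LD-FA replicate 2 and 12 and 38 when LL-FA replicate 2 was left out. Of 37 ribosomal protein genes 10 were higher and 27 lower, with a median of -0.04, and 32 were higher without LD-FA replicate 1, 28 when LL-FA replicate 1 was left out, and 3 when replicate 2 of either group was left out. With both libraries that stood apart removed, 49 of 50 and 33 of 37 were higher, and each list had a median of 0.22. The medians were 0.05 for 29 genes of cytochrome P450 families 1 to 3 with their receptors and partners, 0.01 for 34 genes of conjugation, 0.00 for 18 genes of the urea cycle and nitrogen handling, 0.02 for 45 genes of amino acid breakdown, and -0.03 for 25 genes of bile acid synthesis and transport. The amino acid breakdown list also turned by count. It had 18 higher and 27 lower without LD-FA replicate 1, and 32 higher and 13 lower without LL-FA replicate 1. In the cytochrome P450 list Nr1i2, the nuclear receptor PXR, was at 15.1 and 15.7 FPKM in LD-FA and at 20.2 and 22.4 in LL-FA. The plot of list medians sets 42 lists side by side and leaves out those of pancreas acinar, pancreas islet, muscle, fat, mesothelium, neutrophil and T and NK cells.

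**Figure D4:**
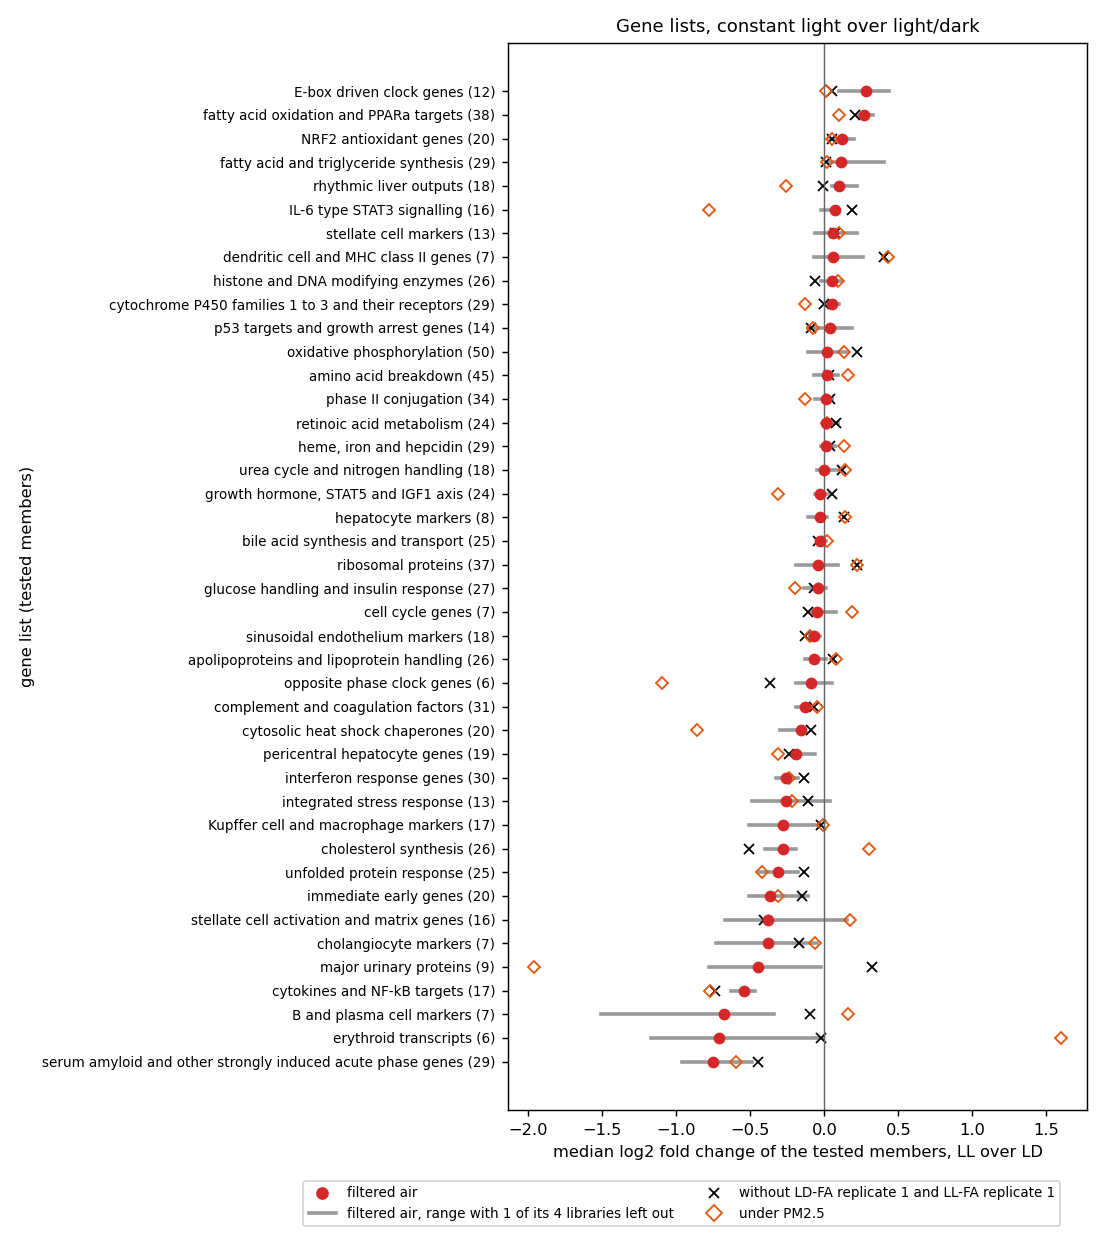
Median log2 fold change, constant light over light/dark, of the tested members of 42 gene lists. Filled circles are filtered air, grey bars the range when 1 of the 4 filtered air libraries is left out, crosses the value with replicate 1 of both groups removed, and open diamonds PM2.5. The acute phase list is lowest at -0.75 and the E-box driven clock genes are highest at 0.28.

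The same light regimes were compared under PM2.5 in 4 other libraries, so the 2 differences share no library. For light under PM2.5 an unadjusted p under 0.05 was reached by 1044 genes (9.23%), and 0 of 11316 (0%) passed after adjustment (smallest edgeR adjusted p = 0.349). The test of the difference between the airs, the interaction in edgeR, called 0 genes (0%), with a smallest adjusted p of 0.843 and 552 genes (4.88%) at an unadjusted p under 0.05. DESeq2 called 33 genes for the interaction. Across all genes, which are not independent, the log2 fold changes in the 2 airs had a Pearson r of -0.08 and a Spearman rho of -0.05, a description only, and 46.9% had the same sign. Of the 310 genes at an unadjusted p under 0.05 in filtered air 172 (55.5%) had the same sign under PM2.5, 109 of the 175 lower genes and 63 of the 135 higher ones.

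The low acute phase and chaperone genes and the high Cyp26a1 recurred in the other air. Saa1 stood at 2134 and 303 FPKM in LD-PM2.5 and at 30.9 and 68.5 in LL-PM2.5, a log2 fold change of -4.59 ± 0.93, and the acute phase list had 27 of 29 members with the same sign in both airs. Hspa1b was at 23 and 36.3 FPKM in LD-PM2.5 and at 2.64 and 10.4 in LL-PM2.5. Cyp26a1 was at 7.05 and 11.6 FPKM in LD-PM2.5 and at 40 and 20.6 in LL-PM2.5, a log2 fold change of 1.74 ± 0.32. The interaction in edgeR had an adjusted p of 0.867 for Saa1, 0.843 for Hspa1b and 0.866 for Cyp26a1, which does not show that the 2 differences were equal.

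Other genes had opposite signs in the 2 airs. Nrep had a log2 fold change of 1.32 ± 0.25 in filtered air and -1.27 ± 0.25 under PM2.5 (interaction adjusted p = 0.843 in edgeR, an unadjusted p under 0.05). Hba-a1, an alpha globin gene carried by red blood cells, was at -0.78 ± 0.30, or -0.25 without LD-FA replicate 1, and 2.07 ± 0.31. Hamp2, a hepcidin-like gene, was at -1.29 ± 0.55 and 3.24 ± 0.56. Alas1 was at 1.36 ± 0.42, or 0.67 without LL-FA replicate 2, and -1.90 ± 0.43. G6pc was at -1.71 ± 0.43 and 0.54 ± 0.42, and Igfbp1 at -2.82 ± 0.83 and 1.11 ± 0.76. The cholesterol synthesis list had a median of -0.28 in filtered air and 0.30 under PM2.5, and 3 of its 26 members had the same sign. The fatty acid oxidation list had medians of 0.27 and 0.10. Under PM2.5 20 of its members were higher and 18 lower, and 21 of 38 had the same sign in both airs. The E-box driven clock list had medians of 0.28 and 0.01. Under PM2.5 6 of its members were higher and 6 lower, and 8 of 12 had the same sign in both airs. Arntl and Nfil3 had the same sign but a larger size under PM2.5, at -0.99 ± 0.15 and -1.21 ± 0.17. In edgeR none of these interactions passed adjustment.

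**Figure D5:**
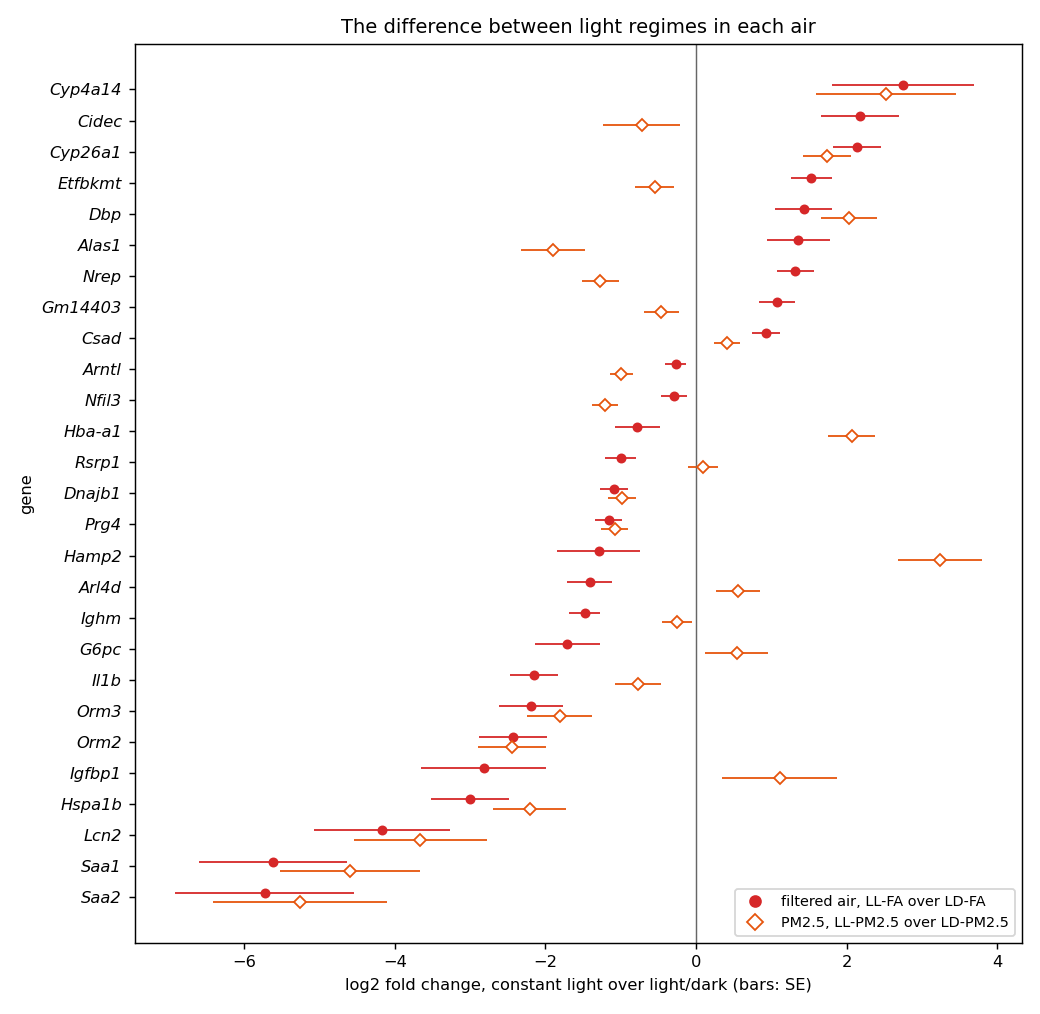
Log2 fold change with its SE (bars), constant light over light/dark, of 27 named genes in filtered air (filled circles) and under PM2.5 (open diamonds). Saa1, Orm2, Hspa1b and Cyp26a1 have the same sign in both airs, while Nrep, Alas1, Hba-a1 and Hamp2 have opposite signs.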

How the data were processed

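Liver RNA was sequenced in 8 libraries, 4 groups of 2, and the groups were taken from the sample titles. Livers were snap-frozen and RNA was isolated with a column kit, per the labels' protocols. The submitters' processing notes name STAR, Cufflinks, Cuffdiff and the build mm10, with no version, option or annotation. The table the authors deposited lists gene and library, per the file headers, with an estimated count of fragments (99% of values within 0.01 of a whole number), and FPKM as deposited by the authors. FPKM is scaled by Cuffdiff for length and depth. Of 48432 genes, 47 that lacked an estimate in at least 1 library (Alb, Apoe and Hnf4a among them) were left out, with 1.07% of the listed fragments. Entries that share a symbol were added (62 symbols). Names and positions come from GENCODE vM21 on GRCm38, which matched 48051 identifiers, and promoters from the RefSeq table on GRCm38.p6.

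The estimated counts were rounded and tested with edgeR 4.0.16 (R 4.3.3, TMM scaling, 1 model with 4 group means, 4 residual degrees of freedom, two-sided, adjusted over all 11316 genes). The biological coefficient of variation was 21.4%. An SE was taken as the size of the log2 fold change over the root of edgeR's F value. Depth and an SE of 0.19 at the median set the precision. The fit was tried on simulated data with known fold changes. Alternatives were median-of-ratios scaling, no filter, a filter at 5 FPKM, DESeq2 1.42.0, limma 3.58.1 with a trend on log2(FPKM + 1) and log2(FPKM + 0.1), the 4 filtered air libraries alone, a replicate block, each library left out in turn and, chosen after seeing the data, replicate 1 of both filtered air groups left out together.

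Genes named were, in each direction, the 10 of smallest p and the 10 of largest fold change among those with non-overlapping FPKM and a group mean of 5 FPKM or more, members of the core clock lists (some are given by count only), up to 4 members of smallest p of each other list, and Cela2a, Acta1 and Adipoq. The comparison and the lists were chosen with earlier results of these data known, and the adrenal lists after these data were seen, so no list was tested as a set. FPKM per fragment differed between replicate 1 and replicate 2 libraries in every group by a gene-specific factor (median 0.07 on the log2 scale), which is balanced over light. In log2 CPM, 30.2% of genes did not overlap between the regimes, against 21.9% in FPKM.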

Additional observations from a re-analysis of the deposited data

Results flagged for a closer look

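Adrenal transcripts appeared in 1 liver library, in genes too low elsewhere to be tested. The 9 genes of adrenal steroid synthesis summed to 71.2 FPKM in LL-FA replicate 1 and to between 0.466 and 0.862 in the other 7 libraries. In that library Hsd3b1 was at 22.2 FPKM, Cyp21a1 at 14.6, Star, the carrier of cholesterol into mitochondria, at 11.1 and Cyp11b1 at 5.28. The 6 genes of the adrenal medulla, the source of adrenaline, summed to 20.8 FPKM there and to at most 0.825 elsewhere. Ucp1, the uncoupling protein of brown fat, stood at 7.92 FPKM in the same library and was listed at 0 in the other 3 of filtered air. These genes were chosen after their values were seen, and their part in the results was not tested.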

How the results depend on the processing

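The count of 0 genes called between LL-FA and LD-FA was 201 with no filter on low values and 43 with DESeq2, and 0 under every other alternative. The 310 genes at an unadjusted p under 0.05 became 960 with no filter, 199 with at least 5 FPKM, 200 and 195 with limma on log2(FPKM + 1) and log2(FPKM + 0.1), 491 with the 4 filtered air libraries alone, and 213 without both libraries that stood apart. With 1 library left out they ranged from 116, without LD-FA replicate 1, to 386. Within the lists these counts moved too. With 1 filtered air library left out fewer cytokine and retinoid genes were under 0.05 in every fit. Fewer acute phase and fatty acid oxidation genes were under 0.05 in each fit but the one without LD-FA replicate 2, which had more. The cause of these differences was not tested. For the interaction 0 calls became 33 with DESeq2 and 2 with limma on log2(FPKM + 1). In log2 CPM, same-numbered libraries did not deviate together in all groups (correlations of deviations from -0.59 to 0.33). The gene-specific factor of FPKM per fragment did follow the number. It correlated at 0.65 to 0.96 between same-numbered libraries and at -0.96 to -0.63 between the others. These values do not settle whether the numbers pair the libraries. With the replicate block 265 genes were under 0.05 and 0 were called.

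Among the named genes 4 changed sign: Per2 at -0.02 was 0.01 and 0.06 with limma at the larger and the smaller pseudocount and 0.20 with the replicate block. It ranged from -0.50 to 0.76 with 1 library left out. With 1 library left out Cry1 at -0.13 ranged from -0.31 to 0.05, Per1 at 0.28 from -0.01 to 0.58 and Cish at 3.57 from -0.77, without LL-FA replicate 2, to 4.97. Per1 was -0.26 without both libraries that stood apart. With 2 libraries a group and tissue transcripts that differ between them, differences well above the median SE of 0.19 could be missed, and without a stated hour of collection a level and a phase cannot be told apart.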

Other observations

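Genes of 4 further groups were read in the same libraries. Of 20 tested genes of the antioxidant factor NRF2, 16 were higher in LL-FA and 4 lower, with a median log2 fold change of 0.12, and without both libraries that stood apart 12 were higher. Nqo1, a quinone reductase, was at 3.78 and 4 FPKM in LD-FA and at 5.63 and 5.45 in LL-FA, while Osgin1, a growth inhibitor, was at 148 and 129 against 76.2 and 62.7. Of 19 genes of hepatocytes around the central vein 13 were lower, with a median of -0.19, which was -0.07 without LD-FA replicate 1 and -0.06, with 9 higher and 10 lower, without LL-FA replicate 2. Without LL-FA replicate 1, 17 were lower, with a median of -0.21. Without both libraries that stood apart 16 were lower, with a median of -0.24. Lgr5, a receptor that amplifies Wnt signals, was at 2.05 and 2.32 FPKM in LD-FA and at 1.66 and 1.26 in LL-FA, a log2 fold change of -0.64 ± 0.18.

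All 9 tested major urinary protein genes, a family of close copies whose fragments may be shared, were lower, with a median of -0.45, and 8 of the 9 were higher, with a median of 0.32, without both libraries that stood apart. Of 6 erythroid transcripts 5 were lower, with a median of -0.71, which was -0.01 without LD-FA replicate 1. Hba-a1 was at 23.6 FPKM in that library, 12.7 in LD-FA replicate 2, and 9.76 and 10.5 in LL-FA.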
